A study of Mus musculus with 2 samples.

Results

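Intergenic open chromatin regions far from their assigned gene start were examined in mouse regulatory T (Treg) cells with and without transketolase. The regions are the ATAC-seq peaks that carried the authors' annotation "Distal Intergenic" and lay more than 50 kb from the transcription start site (TSS) assigned to them. They numbered 1180 of 54120 peaks, with 830 of 34440 in the WT library (2.41%) and 350 of 19680 in the cKO library (1.78%), and they are called far intergenic regions below. The other distal intergenic peaks, 6257 in WT and 2862 in cKO, lay within 50 kb and are called nearer intergenic regions.

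Both libraries came from CD4+CD25+YFP+ cells sorted from spleen and lymph node of untreated C57BL/6 female mice at 7 weeks of age, described as chimeric. The WT library was made from Foxp3cre/+ mice and the cKO library from Foxp3cre/+ TKTfl/fl mice, so the control also carries Cre. Tkt encodes transketolase, an enzyme of the pentose phosphate pathway, and Cre under Foxp3 control deletes it in Foxp3-expressing cells. Foxp3 lies on the X chromosome, so in a heterozygous female only some Treg cells express Cre, and YFP marks them. Each group has 1 library, and the number of animals behind it is not given in the sources used here. Every difference below therefore compares these libraries, with no replicate check and no p-value.

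Depth was unknown for both libraries, and the shorter cKO list limits how many WT regions can have a partner. A region missing from a list may have fallen below the peak caller's threshold. Tkt, the targeted gene, had 1 promoter peak in each list and no far intergenic region, and whether the floxed part includes that promoter is not stated, so the peak does not check the genotype. Peaks at Foxp3 (2 in each library), Il2ra (6 in WT and 4 in cKO), Ctla4 (4 and 3) and Cd4 (2 and 1) were present. No peak was assigned to Cd8a, Ms4a1, Csf1r or Ncr1 in either list, while Cd8b1 had 1 peak in each. In bulk cells, fewer cells with an open site and less opening per cell cannot be told apart.

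Distal enhancers are short stretches of DNA, bound by transcription factors, that can act on a promoter over long distances through looping of the chromatin. When bound, they lose their nucleosomes and become accessible to the Tn5 transposase used in ATAC-seq. Gene deserts beside developmental and immune regulators often hold groups of such elements, which is why the nearest start site need not be that of the gene they act on.

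Some of these regions hold the start of a RefSeq gene, although the start assigned by the authors lay more than 50 kb away. The RefSeq starts used here covered the chromosomes of 754 of the 830 WT regions and 321 of the 350 cKO regions. The set of starts was incomplete. For the WT Extl3 region, 52275 bp from its assigned TSS, the nearest start in the set lay 1973419 bp away, at Gm35908. Counts of regions at or near a RefSeq start are therefore lower limits. The others could not be checked. RefSeq windows from 250 bases before to 50 bases after a start overlapped 18 of the WT regions checked. Of these 18, 9 were also open in the cKO library. The windows overlapped 8 of the cKO regions checked, all of which were open in WT. Of these windows 11 lay whole inside a WT region, and 8 of them are printed. Their regions are far from the start assigned by the authors but lie at a RefSeq start. The 8 windows therefore give sequence around such starts, and they cannot stand for the sequence of far intergenic regions as a class. They were picked after their values were seen, and the windows of Gm36223 (shared) and Gm32403 (unshared) and an overlapping second one of Gm33315 are left out. Clcn5, a chloride transporter gene, is the only one of the 8 that is not a predicted gene. The first 7 lay in regions shared with cKO and the last in a region without overlap. They are written 5′ to 3′ on the strand of the RefSeq gene (RefSeq, GRCm38.p6), with capitals at matches to a searched motif.

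Gm36486, chr17:29437530-29437829, minus strand: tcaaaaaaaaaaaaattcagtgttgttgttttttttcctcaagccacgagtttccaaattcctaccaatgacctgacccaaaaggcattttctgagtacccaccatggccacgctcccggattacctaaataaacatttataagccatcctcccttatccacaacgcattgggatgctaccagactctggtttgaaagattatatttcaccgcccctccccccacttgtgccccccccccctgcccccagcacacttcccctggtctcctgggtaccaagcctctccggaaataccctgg
Gm51425, chr17:17004866-17005165, plus strand: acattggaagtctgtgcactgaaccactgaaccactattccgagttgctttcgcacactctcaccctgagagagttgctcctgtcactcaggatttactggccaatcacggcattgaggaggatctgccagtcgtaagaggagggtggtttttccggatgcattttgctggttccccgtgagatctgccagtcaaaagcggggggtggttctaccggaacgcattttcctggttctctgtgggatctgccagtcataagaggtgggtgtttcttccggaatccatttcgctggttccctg
Gm33327, chr5:106802424-106802723, plus strand: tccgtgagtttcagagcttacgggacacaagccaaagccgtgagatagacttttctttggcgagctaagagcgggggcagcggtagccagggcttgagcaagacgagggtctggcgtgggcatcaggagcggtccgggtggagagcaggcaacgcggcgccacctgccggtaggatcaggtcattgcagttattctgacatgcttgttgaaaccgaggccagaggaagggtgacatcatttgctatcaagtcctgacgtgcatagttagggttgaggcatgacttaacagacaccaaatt
Gm40124, chr3:115641677-115641976, minus strand: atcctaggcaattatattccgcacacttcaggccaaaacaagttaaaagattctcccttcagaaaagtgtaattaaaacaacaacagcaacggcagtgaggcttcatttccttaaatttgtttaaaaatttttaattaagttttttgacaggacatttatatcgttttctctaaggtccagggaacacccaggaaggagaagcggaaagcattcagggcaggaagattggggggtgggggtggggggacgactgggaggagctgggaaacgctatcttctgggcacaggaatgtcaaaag
Gm33315, chr13:52828828-52829127, plus strand: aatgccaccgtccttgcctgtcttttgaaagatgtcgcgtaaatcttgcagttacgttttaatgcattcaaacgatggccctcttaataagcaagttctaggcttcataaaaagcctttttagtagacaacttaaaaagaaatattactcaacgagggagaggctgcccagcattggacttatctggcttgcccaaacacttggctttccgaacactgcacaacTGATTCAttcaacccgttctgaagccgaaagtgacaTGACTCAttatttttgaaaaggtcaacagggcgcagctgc
Gm30507, chr16:76249542-76249841, minus strand: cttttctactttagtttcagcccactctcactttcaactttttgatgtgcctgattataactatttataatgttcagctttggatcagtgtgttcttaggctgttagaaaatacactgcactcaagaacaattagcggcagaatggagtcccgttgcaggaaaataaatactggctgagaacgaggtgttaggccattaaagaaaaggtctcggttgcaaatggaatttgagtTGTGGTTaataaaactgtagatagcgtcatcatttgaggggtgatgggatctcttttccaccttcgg
Clcn5, chrX:7319309-7319608, minus strand: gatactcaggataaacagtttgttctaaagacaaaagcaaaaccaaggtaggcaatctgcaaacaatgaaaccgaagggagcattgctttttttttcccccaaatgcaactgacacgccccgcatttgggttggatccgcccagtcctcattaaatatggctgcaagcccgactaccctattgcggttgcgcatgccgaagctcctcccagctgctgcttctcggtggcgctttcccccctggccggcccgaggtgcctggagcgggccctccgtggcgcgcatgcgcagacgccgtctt
Gm10858, chr5:146897048-146897347, minus strand: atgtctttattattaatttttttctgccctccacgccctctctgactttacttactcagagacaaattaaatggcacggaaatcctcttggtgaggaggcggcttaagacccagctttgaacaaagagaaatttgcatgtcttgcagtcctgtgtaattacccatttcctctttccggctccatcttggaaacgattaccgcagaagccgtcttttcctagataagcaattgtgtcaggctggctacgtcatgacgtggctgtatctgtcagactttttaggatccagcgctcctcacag

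Gm36486 lay in the region assigned to Pim1, a kinase induced by cytokines, which stood at percentile 87.4 of WT scores. The score percentile is the share of peaks of the same list that score no higher. Gm51425 lay in a region at percentile 88.5 assigned to BC002059. Gm40124 lay in a region 71847 bp from the S1pr1 TSS. The Clcn5 window lay in a region at percentile 78.7 assigned to Usp27x, a ubiquitin protease gene. Gm10858 lay in the region assigned to Gtf3a, at percentile 73.7, which had no cKO overlap.

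Motifs were searched on both strands in the parts of the windows inside the regions. They were ETS (ACAGGAAGT or CCGGAAGT), RUNX (TGTGGTTT or AACCACA), AP-1 (TGANTCA), forkhead (TGTTTAC), TCF/LEF (CTTTGAT) and the core consensus sequence of CTCF. The reverse complement of AACCACA is contained in TGTGGTTT, so these forms overlap. Among the printed windows, Gm33315 held 2 AP-1 matches and Gm30507 held 1 RUNX match, and the other 6 held none. Matches also lay in WT windows that are not printed, besides the overlapping one of Gm33315. They were AP-1 in Gm39816 (shared) and Gm30957 (unshared), and RUNX in Gm35204 and 4930554I06Rik (both unshared). Of all 32851 RefSeq windows, 7.81% held AP-1, 5.27% RUNX, 4.88% ETS, 3.73% TCF/LEF, 3.65% forkhead and 0.557% CTCF. A match is a description of these letters and not evidence of binding.

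In the full lists most far intergenic regions of cKO were also called in WT, whereas most of the more numerous WT regions had no cKO partner. That contrast changed when the WT list was cut to the length of the cKO list. A cKO peak overlapped 332 of the 830 WT regions by at least 1 bp (40.0%, Wilson 95% interval 36.7 to 43.4), and 498 had no overlap. Over all WT peaks the share was 56.1%, so far intergenic regions were shared less often than the whole list. In the other direction, a WT peak overlapped 332 of the 350 cKO regions (94.9%, 92.0 to 96.7), against 97.6% of all cKO peaks, which left 18 cKO regions without overlap. When the WT list was limited to its 19680 highest scores, the number of cKO peaks, 240 of 333 WT regions (72.1%) and 240 of 350 cKO regions (68.6%) were shared. After this cut most regions of both libraries were shared. The cut removes the lowest WT scores, where few regions had a partner, and can only remove partners of cKO regions. The cKO share could therefore only fall, and a rise of the WT share was built in. Both shares count 240 regions, so their order restates 333 against 350. The part of list length in the contrast was not tested. Intervals cover counting error only, and neighbouring regions are not independent.

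The lower WT share was common to peaks away from promoters. Nearer intergenic regions were shared at 43.2%, intron peaks at 39.8% and promoter peaks at 74.3%. Far regions lay 3.23 points below nearer ones, with an interval of the difference from -6.73 to 0.355 points that includes 0. Compared within 10 equal bins of WT score far regions stood 1.14 points higher (-1.67 to 3.94), and when width was matched too, 0.274 points higher (-2.32 to 2.87). In cKO the unmatched difference was -0.251 points (-3.18 to 1.80). These intervals include 0 and also differences of a few points in either direction. With lists of equal length the cKO difference was -5.92 points, outside the interval of the full lists, and the WT difference -0.762 points.

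Overlap followed the score. In WT, 13 of 128 regions in the lowest score bin of the list had a cKO partner (10.2%), 44 of 106 in bin 5 (41.5%), 58 of 71 in bin 7 (81.7%), 56 of 60 in bin 8 (93.3%) and 11 of 11 in bin 10, where 0 unshared of 11 allows up to 27.3%. Nearer regions rose in the same way. In cKO, 46 of 55 regions of the lowest bin were open in WT (83.6%), and in each of bins 5 to 10 every region was, from 42 in bin 5 to 7 in bin 10.

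**Figure D1:**
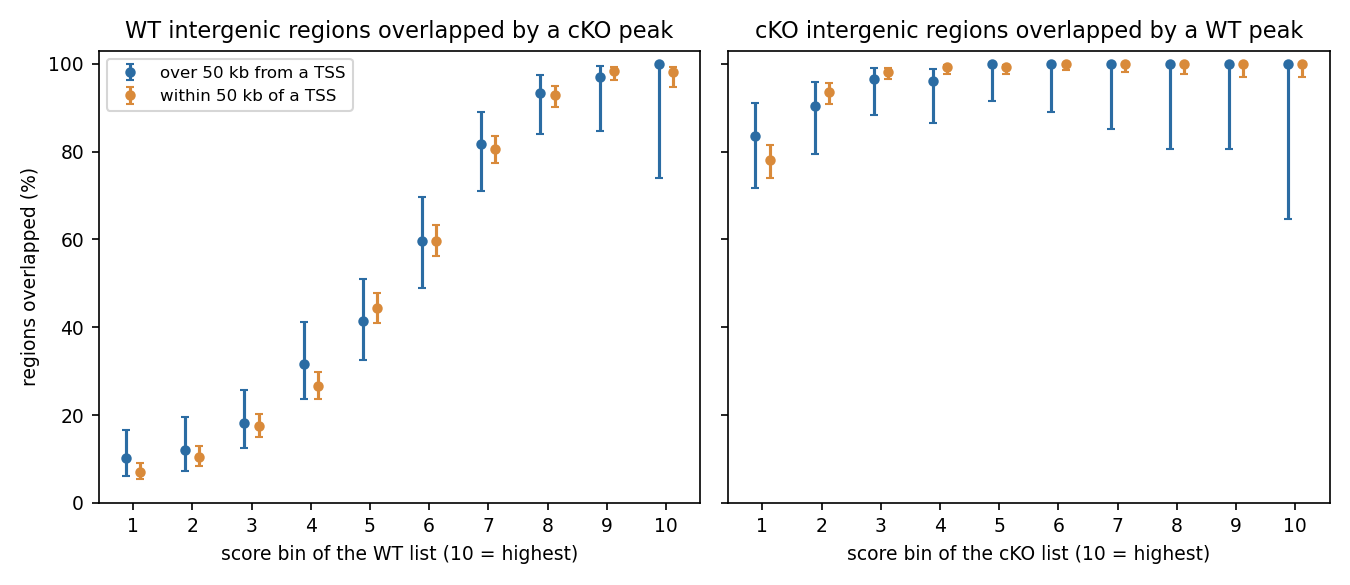
Percentage of intergenic regions overlapped in the other library (y axis) by score bin of their own list (x axis, bin 10 highest). Regions over 50 kb from the assigned TSS are blue and those within 50 kb orange, with Wilson 95% intervals. In WT the share of far regions climbs from 10.2% in bin 1 to 81.7% in bin 7 beside that of nearer regions, and in cKO it starts at 83.6%.

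Far intergenic regions scored low in their own lists. Their median percentile was 35.4 in WT (95% interval 32.5 to 37.8) and 31.2 in cKO (28.0 to 35.1), against 40.0 and 33.8 for nearer regions. Intron peaks stood at 35.0 and 29.8 and promoter peaks at 71.2 and 64.1, so low scores were not particular to far regions. Above the median score of the list lay 257 WT regions (31.0%) and 92 cKO regions (26.3%), and in score bin 10 lay 11 and 7. Shared WT regions had a median percentile of 58.6 and unshared ones 23.5. The score ranks peaks within 1 list, and ranks from lists of different length show no change between them.

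Shared regions were also the wider ones. The median width was 812 bp in WT (770 to 850, range 361 to 3571) and 851 bp in cKO (807 to 916, range 468 to 2669). Shared WT regions had a median of 1130.5 bp and unshared ones 628.5 bp. The split was general to the WT list, with 1137 against 646 bp for nearer regions and 1213 against 662 bp for all peaks. The cKO partner was narrower than the WT region in 267 of 332 pairs, and a median of 76.7% of the WT width was covered. The 5 widest WT regions, assigned to 2610204G07Rik (3571 bp), Gm22542 (2947), Cd47 (2838), Mir6356 (2833) and Gm9889 (2731), were all shared, and the widest cKO region (2669 bp) was the Mir6356 one. All regions together covered 0.747 Mb in WT and 0.325 Mb in cKO. Of the 332 WT regions with a partner, 330 had a partner that was itself a far intergenic region.

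Most regions lay not far beyond the threshold. The median distance to the assigned TSS was 72.1 kb in WT (quartiles 58.2 and 93.6) and 70.7 kb in cKO (57.2 and 92.4), with 434 WT regions upstream of it and 396 downstream. Between 50 and 60 kb, 107 of 240 WT regions were shared (44.6%, 38.4 to 50.9), between 100 and 150 kb 43 of 129 (33.3%, 25.8 to 41.8), and between 200 and 400 kb 10 of 20 (50.0%, 29.9 to 70.1). The median percentile of these bins was 41.9, 30.1 and 34.0, and the shares showed no steady course with distance. At the threshold itself, WT regions of Gm2076 and Gm49312 lay inside at 50001 bp each and one of Gm29418 outside at 50000 bp. The nearest cKO regions were those of Gm11077 at 50075 bp inside and Tagap at 49956 bp outside. The Gm2076 region crossed the threshold between the lists, since its cKO partner lay 49788 bp from the TSS.

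**Figure D2:**
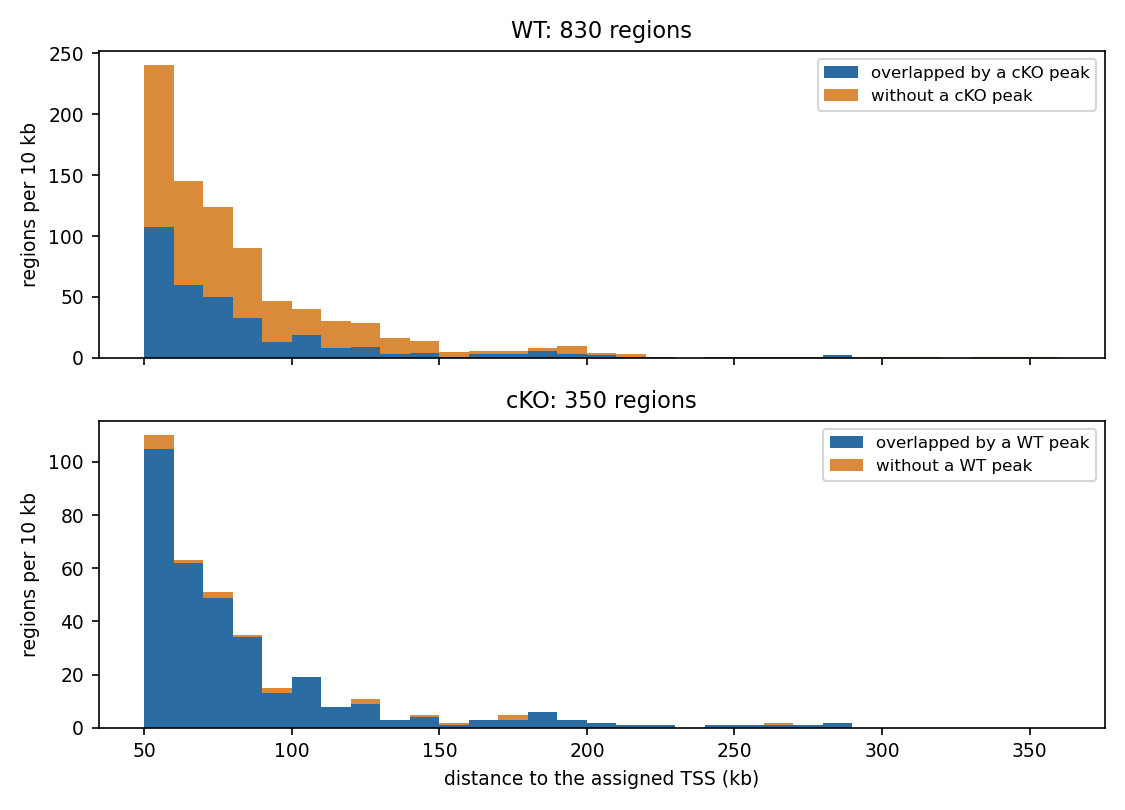
Number of far intergenic regions per 10 kb of distance to the assigned TSS (x axis, kb), for WT (upper) and cKO (lower, with its own y scale), stacked by overlap in the other library. Numbers fall steeply from 240 WT and 110 cKO regions between 50 and 60 kb, and bins of a single region far to the right are barely visible.

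The regions farthest from their assigned start had mixed scores. Beyond 200 kb the median percentile was 34.0 over 20 WT regions, against 35.4 for all far ones, and 38.2 over 11 cKO regions, against 31.2. The WT maximum was a region of 485 bp at chr1:141898072-141898556, 351866 bp from the predicted model Gm37604, at percentile 25.1 and unshared. Next came a region 344981 bp from Tshz1, a zinc finger factor of development, at percentile 28.6, and another 332519 bp from 4930594M17Rik. Beyond 300 kb, 0 of 5 WT regions were shared (Wilson 95% interval up to 43.4%). The farthest shared regions lay 284661 bp from 4930594M17Rik and 281576 bp from AC154478.1, the latter at percentile 64.2 in a group upstream of Cblb described below. The next, 273672 bp from AC154774.1 in the same group, stood at percentile 94.0. The farthest cKO region was the partner of that 4930594M17Rik region, at 284792 bp.

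The assigned gene was often a predicted model, so the coding genes on either side were taken from RefSeq. Of the WT regions, 476 were assigned to a predicted model (57.3%, against 51.8% of nearer regions), and by RefSeq type 326 to a protein-coding gene, of which 131 were shared. The 515 assigned WT genes had a single region in 341 cases and 3 or more in 71. A RefSeq gene body, mostly of a long non-coding RNA (127), overlapped 156 WT regions (18.8%) and 71 cKO regions (20.3%), and a coding gene 22 and 9.

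Distance from a start is not distance from a gene. A RefSeq coding gene overlapped 82 WT regions or had its edge within 10 kb of them (9.88%), and 25 of these were shared (30.5%). Of the other 748, 307 were shared (41.0%), a comparison not matched on score. In cKO 27 of 350 regions lay within that 10 kb. With a limit of 50 kb the counts were 273 of 830 WT regions (32.9%) and 108 of 350 cKO regions (30.9%). The Extl3 region, among the strongest in both libraries, was 52275 bp from its TSS but 6228 bp from the edge of the Extl3 gene body and 4400 bp from that of Ints9.

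In WT regions in the widest gaps between coding genes had a lower median score, while in cKO the medians were close. The gap between flanking coding genes had a median of 328 kb for WT regions and 332 kb for cKO regions, and the widest was 3975 kb. In gaps over 1 Mb, 45 of 127 WT regions were shared (35.4%, 27.7 to 44.1) at a median percentile of 29.4. In smaller gaps 280 of 678 were shared (41.3%) at a median percentile of 37.0. In WT the lower score moved with the lower share, and its part in it was not tested. In cKO 45 of 49 regions in gaps over 1 Mb were shared (91.8%, 80.8 to 96.8) at a median percentile of 30.9, and 279 of 291 in smaller gaps (95.9%) at a median percentile of 31.5.

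Chromosomes differed in the percentage of peaks that were intergenic and over 50 kb from the assigned TSS. Chromosome 18 had the highest percentage of WT peaks in the class, with 76 of 967 (7.86%, 6.33 to 9.73), and 29 of 532 in cKO (5.45%). On gene-dense chromosome 11 it was 11 of 2662 in WT (0.413%) and 6 of 1570 in cKO. On chromosome 17, 27 of 44 WT regions were shared (61.4%), and on the X chromosome 4 of 18 (22.2%). These were the highest and lowest WT shares among chromosomes with such regions, named after their values were seen. A single cluster on chromosome 17 held 9 of its regions, 8 of them shared, and the differences between chromosomes were not tested. No RefSeq start was available for the regions of chromosome 18, so they were not checked for windows around such starts.

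The strongest far intergenic regions were open in both libraries. In WT the highest score lay at chr10:97312678-97314133, 1456 bp wide, 70766 bp from the pseudogene Gm18515. It ranked 766 of 34440 in WT, and its cKO partner ranked 184 of 19680, the highest far region of both lists. The nearest coding gene edge was that of Dcn, which encodes the matrix proteoglycan decorin, at 165366 bp.

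The 10 highest WT regions were all shared, at percentile 90.9 or above. After Gm18515 they were assigned to Arhgap12, Gm49506, AC154774.1, Dph5, Gm44852, Rflna, Extl3, Sp4 and Dnajc5b. The Arhgap12 region (chr18:5989474-5990355, percentile 96.7) lay 34092 bp from that gene and 214005 bp from Zeb1, a zinc finger repressor active in T cells. The Dph5 region (chr3:115815147-115816671, percentile 93.9) lay 100091 bp from S1pr1, the receptor that lets T cells leave lymph nodes. Of the 10 highest cKO regions, 8 carried the same assigned gene as one of these, and the other two were assigned to Setbp1 (percentile 96.4 of cKO) and Pced1b (percentile 88.3).

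Unshared WT regions reached lower than this. The highest lay at chr14:124801549-124802057, 509 bp wide, at percentile 82.7, assigned to 4930404O17Rik and 123862 bp from Fgf14. It was followed by regions of Lrpap1 (percentile 75.5) and Gtf3a (percentile 73.7). The others of the first 10 were assigned to Dnajc5b, Gm20150, Ppp3ca, Gcnt1, Irf2bp2, 4930594M17Rik and Chst2, at percentile 67.0 or above. Ppp3ca encodes the calcineurin catalytic subunit that activates NFAT, and its region (chr3:136611275-136612355) lay 57769 bp from the TSS. The Gm20150 region (percentile 70.4) was 73877 bp from Trib1, a pseudokinase.

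Regions called in cKO alone were few and had low scores. The 18 had a median percentile of 8.08 and a maximum of 37.9 in the cKO list. The highest were assigned to the pseudogene Gm20586 on chromosome 8 and to Cd2ap, an adaptor of the CD2 receptor, at chr17:42943556-42944249 (percentile 37.2). Others named by rank were Gm21007, Gm37987, 4930488N15Rik, Cd47, AC166114.1, Gprin3, Kctd1 and Tcf7l2, the last a TCF/LEF factor of Wnt signalling. In all joined groups of WT and cKO regions, 12 groups held cKO regions only, and none of them held 3 or more.

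Many far intergenic regions lay in groups. Regions no more than 50 kb apart were joined, and groups of 3 or more were called clusters. In WT 89 clusters held 365 of the 830 regions (44.0%), beside 84 pairs and 297 single regions, and the median cluster spanned 42.3 kb (range 9.59 to 127 kb). In cKO 21 clusters held 84 regions (24.0%), and each of the 21 overlapped a WT cluster. That overlap was largely built in, since 332 of the 350 cKO regions had a WT partner. The clustered percentages come from 830 and 350 regions joined at the same distance, so they cannot be set against each other. All regions were shared in 8 WT clusters, none in 16 and some in 65. Clustered WT regions were shared at 44.1% and others at 36.8%, a difference of 7.34 points (0.621 to 14.0), which was -0.264 points (-5.65 to 5.12) within score bins. In cKO clustered regions were shared at 98.8% (83 of 84) and others at 93.6%, a difference of 5.20 points (-0.556 to 8.94). Within score bins it was 4.35 points (0.958 to 7.74). This last interval counts no error in bins where every region was shared, so it is too narrow and cannot decide whether the difference is 0.

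The largest cluster lay between Lrpprc, a mitochondrial RNA-binding protein gene, and Ppm1b, a protein phosphatase gene. It held 9 WT regions over 49.4 kb (chr17:84844663-84894046), 8 of them shared, and 8 cKO regions, all shared. Its first region stood at percentile 87.7 in WT and percentile 78.7 in cKO. Its unshared WT region was 567 bp wide at percentile 30.2, and even its shared regions reached down to percentile 5.28.

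Gata3, a transcription factor of T cell development and Treg function, borders a gap of 2461 kb up to the RNA-binding protein gene Celf2. In that gap a cluster of 8 WT regions (chr2:9681602-9771252) ended 85.8 kb from Gata3, and 4 of the 8 were shared. The shared ones stood at percentiles 74.7, 24.2, 43.6 and 76.7 in WT, and 3 of their cKO partners formed a cKO cluster of 10.6 kb. A second cluster of 6 (chr2:8941660-8965560) lay 892 kb from Gata3, with 1 shared. Together 17 WT regions lay next to Gata3, and 6 were shared.

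Clusters beside Cd44, Cd47 and Nrp1, genes of surface receptors, held 5 of 7, 5 of 8 and 2 of 7 shared regions, against 40.0% of all far WT regions, and the differences between them were not tested. Beside Cd44, the hyaluronan receptor raised on activated T cells, 7 WT regions spanned 56.6 kb up to Pdhx (chr2:102956601-103013238), and 5 were shared. The Cd44 region at chr2:102956601-102957452 was at percentile 85.1 in WT and percentile 29.3 in cKO. The unshared regions of the cluster, at percentiles 13.1 and 20.1, were the weakest of the 7. Beside Cd47, which encodes a signal against phagocytosis, 5 of 8 WT regions were shared, among them 1 of 2838 bp at percentile 80.0, and a cKO region at percentile 18.8 had no WT overlap. Nrp1 encodes neuropilin, a co-receptor of thymic Treg cells. A cluster that overlaps the end of the gene and runs towards Itgb1 held 7 regions (chr8:128503887-128551620), of which 2 were shared.

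Between S1pr1 and Dph5 all 4 WT regions of a cluster of 41.0 kb (chr3:115775683-115816671) were shared. Their WT percentiles were 7.34, 69.1, 64.1 and 93.9, and those of their cKO partners 18.2, 71.9, 75.1 and 91.3. The same held for 4 of 4 regions upstream of Cblb, an E3 ligase gene that restrains T cell activation. That cluster (chr16:51674853-51720685) lay 310.5 kb from Cblb in a gap of 1440 kb, and its strongest region stood at percentile 94.0 in WT and percentile 90.5 in cKO. Further clusters were shared whole. A cluster of 5 regions lay 5.32 kb from Auh, an RNA-binding hydratase gene, and 144 kb from Syk, a tyrosine kinase gene. A cluster of 4, up to percentile 89.4, lay 205 kb from Rplp1, a ribosomal protein gene, and 250.4 kb from Tle3, a Groucho corepressor gene. A cluster of 3, at or below percentile 44.7, lay 335 kb from Satb1, a chromatin organiser of T cells, and 419 kb from Kcnh8. Others of 3 lay 50.5 kb from Dusp4, a MAP kinase phosphatase gene, 2.98 kb from Mbd2 and 146 kb from Setbp1.

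In other clusters 0 or 1 WT region was shared. Of all far WT regions 40.0% were shared, and of those in score bin 3, where several of these clusters have their median, 18.1% (23 of 127). Between Nr3c1, the glucocorticoid receptor gene, and Pabpc2 lay 8 WT regions over 108 kb (chr18:39611728-39719949). Only 1 of them was shared, at percentile 69.8, while an unshared neighbour of 1100 bp stood at percentile 65.3. Pabpc2 had the most assigned regions of any WT gene, with 10, of which 1 was shared. It was followed by 4930594M17Rik with 9 (4 shared), 4930488N15Rik with 8 (2 shared), and Chst2, Gm9204 and 2610204G07Rik with 7 each (3, 2 and 5 shared). The cKO genes with most regions were 2610204G07Rik with 6 and BB123696 with 5, all shared. Between Tox, an HMG-box factor gene, and Car8, 0 of 6 WT regions were shared (chr4:7912341-8034501), although they reached percentile 57.4. That cluster lay 921 kb from Tox, and over both sides of Tox 3 of 14 WT regions were shared. In 3 clusters of 5 WT regions 1 was shared each. The first (chr15:61408330-61482666, median percentile 27.1) lay 487 kb from A1bg and 503 kb from Myc, a growth regulator. The second (chr8:115385561-115436556, median percentile 28.7) lay 32.8 kb from Wwox and 267 kb from Maf, a factor of T helper and Treg cells. The third (chr16:45304962-45347248, median percentile 9.20) lay 34.9 kb from Cd200 and 52.1 kb from Btla, an inhibitory receptor gene.

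**Figure D3:**
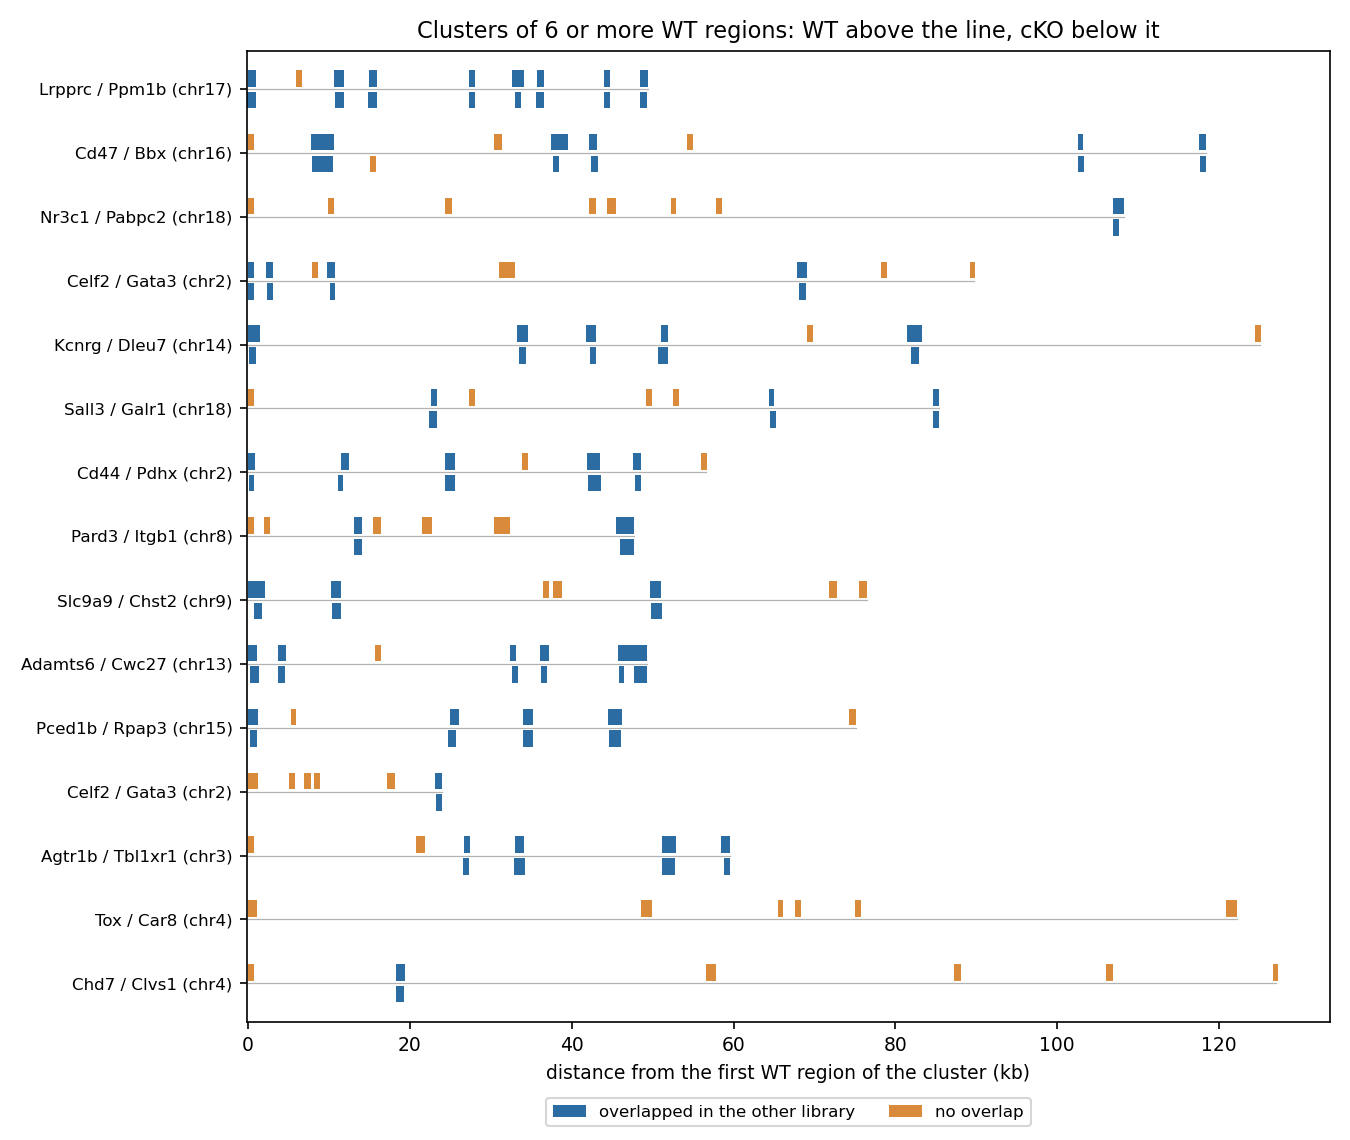
Positions of far intergenic regions in the 15 WT clusters of 6 or more regions, as distance in kb from the first WT region (x axis), each row named by the RefSeq coding genes on either side, with WT regions above and cKO regions below the line. Blue regions overlap in the other library and orange ones do not, and very narrow regions are drawn slightly widened. The row between Lrpprc and Ppm1b is nearly complete in cKO, and the row between Tox and Car8 holds no cKO region.

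The remaining named clusters lay between these extremes. Between Kcnrg and Dleu7 on chromosome 14, 5 of 7 WT regions were shared, over 125 kb. Between Slc9a9 and Chst2, a sulfotransferase gene, 3 of 7 were shared, and between the developmental factor gene Sall3 and Galr1, in a gap of 1405 kb, 3 of 7. Between Adamts6 and Cwc27, 5 of 6 were shared, with 6 cKO regions, since the widest WT region of all (3571 bp) overlapped 2 cKO peaks. Beside Pced1b 4 of 6 were shared, up to percentile 96.4 in WT and percentile 95.6 in cKO, and beside Tbl1xr1, a corepressor subunit gene, 4 of 6.

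Gene lists were read by assigned gene and by RefSeq coding neighbour. They were drawn up with results of these data known, so their counts are a description. Of 80 transcription factor genes of T cells and Treg cells, 8 had an assigned WT region, 17 regions in all, of which 6 were shared (35.3%, 17.3 to 58.7). Their median percentile was 31.1, against 35.4 for all far WT regions. By neighbour, 30 of the genes bordered 123 WT regions, of which 44 were shared (35.8%, 27.9 to 44.6), close to the 40.0% of all far WT regions. In cKO 21 of the genes bordered 46 regions, of which 43 were shared.

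Within this list genes differed widely. Runx3, a factor of T cell effector programmes, had 3 bordering WT regions, all shared, between percentiles 70.2 and 79.0. Bcl11b, which maintains T cell identity, had 2, both shared, at 350 and 548 kb and at percentiles 63.3 and 74.0. Zfp36l2, an RNA decay factor kept in the list, had 5 with 2 shared, among them chr17:84118985-84120154 at percentile 85.3 in WT and percentile 82.7 in cKO. Foxo1, which supports Treg function, had 1 of 2 shared, at 320 and 506 kb, and the shared one stood at percentile 88.8. Maf had 2 of 10 shared, Nr3c1 1 of 8, Myc 2 of 7, Runx1 3 of 7, Id2 2 of 5 and Ikzf2, which encodes Helios, 0 of 2. Shared regions were the strongest of those bordering Maf (percentile 72.3), Myc (percentile 58.7) and Id2 (percentile 83.6). Bordering regions can be far away: those of Myc lay 466 to 576 kb from it and those of Id2 861 to 972 kb. The strongest Id2 one was in a cluster 237 kb from Rnf144a.

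Receptors and signalling genes had fewer regions. Of 60 receptor and surface genes, 3 had assigned WT regions, with 5 of 6 shared (83.3%, 43.6 to 97.0), namely 3 of 3 at Cd44, 2 of 2 at S1pr1 and 0 of 1 at Cxcr4. By neighbour 10 genes bordered 38 WT regions, of which 17 were shared (44.7%, 30.1 to 60.3). Within them S1pr1 had 6 of 7 shared, Nrp1 2 of 13, Itgb1 2 of 6 and Ptprc, which encodes CD45, 0 of 4. A region between 2 genes counts for both, and the 2 shared regions of Nrp1 and of Itgb1 are the same ones.

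Of 69 signalling genes, 8 had 13 assigned WT regions, of which 9 were shared (69.2%, 42.4 to 87.3), and by neighbour 15 genes bordered 42 regions with 20 shared (47.6%, 33.4 to 62.3). The strongest was a region 55852 bp from Smad7, the inhibitory SMAD of TGF-beta signalling, at percentile 84.9 in WT and percentile 83.9 in cKO. Cblb had 5 of 6 shared, Dusp4 3 of 3 and Rgs2 3 of 6, while Sgk1, the serum and glucocorticoid induced kinase, and Trib1 had 0 of 3 each. The Sgk1 regions lay 346 to 364 kb from that gene, in a cluster 121 kb from Aldh8a1. For the receptor and the signalling list, the interval by neighbour contains the 40.0% of all far WT regions and the interval by assigned gene lies above it, with 6 and 13 regions behind the latter.

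Genes of neurons and development served as a contrast, and 81 were listed. By assignment 2 of them had WT regions, 4 at Tshz1 and 1 at Cntnap2, and 0 of the 5 were shared. By neighbour 11 of them bordered 34 WT regions, of which 15 were shared (44.1%, 28.9 to 60.5), and 14 of these regions, 8 of them shared, lay beside Sall3. In cKO 6 of the genes bordered 16 regions, 15 of them shared. Of 34 markers of other cells only Epcam, an epithelial adhesion gene, had an assigned region, shared between libraries at 63918 bp from the TSS in WT. By neighbour the B cell factor gene Ebf1 was added, 744 kb from a shared region.

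**Figure D4:**
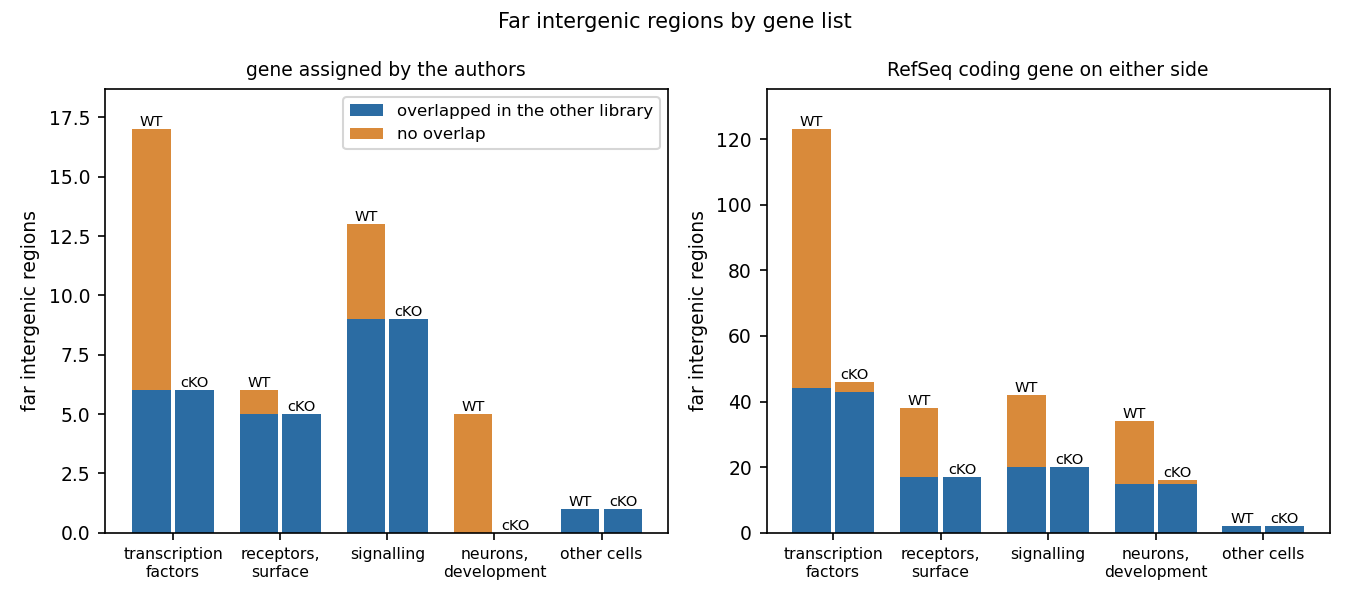
Number of far intergenic regions (y axis) assigned by the authors to members of 5 gene lists (left) or bordered by them among RefSeq coding genes (right), in WT and cKO, split by overlap in the other library (blue overlapped, orange not). The transcription factor list is the largest under both assignments, with 17 and 123 WT regions, and the y scales differ.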

How the data were processed

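ATAC-seq was deposited as 1 annotated peak list for each library, although the labels give total RNA as the molecule. The submitters' processing notes name mm10, BWA, MACS2, FastQC and Trimmomatic. Versions, settings, read totals and duplicate handling were not given in the sources used here. The peak score is the authors' deposited value, not named further by the file headers, and was used only to rank peaks within their own list. Width, class, assigned gene and distance to its TSS are the authors' too, per the file headers. Peaks were called per library.

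The regions were all distal intergenic peaks with a distance over 50 kb. Overlap of at least 1 bp, Wilson 95% intervals (Newcombe for unmatched differences, binomial counting error within bins), order-statistic intervals of medians, score bins and chains were computed with Python 3.11.15, pandas 2.3.3, numpy 2.4.6 and scipy 1.17.1. The floor of a count of 0 is 3 counts. The overlap code differed from bedtools 2.31.1 at 0 of 34440 peaks, and overlap and chaining were tested on simulated data. Neighbouring coding genes and promoter windows came from RefSeq (GRCm38.p6, the assembly of mm10). The planned motif search in all regions was not run, because no genome was used, so only RefSeq windows were searched.

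Named by rule were the 10 highest scoring regions per library, the 10 highest without overlap, the 10 most distant, the 5 widest, the 10 genes and 8 clusters with most regions, and members of 5 gene lists. Ties were kept. Members and lists were chosen with earlier results of these data known. Clusters shared whole, or beside Myc, Maf and Btla, were named after their values were seen.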

Additional observations from a re-analysis of the deposited data

How the results depend on the processing

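No paired analysis was possible because there is 1 library per genotype, so leaving out a replicate was not possible either. With a threshold of 100 kb there were 184 WT and 76 cKO regions, 17 and 4 clusters, median percentiles of 30.1 and 24.9, a WT median width of 721 bp and a cKO share of 90.8%. Without predicted models 354 WT and 145 cKO regions were left. With clusters of 4 or more there were 44 in WT and 12 in cKO. The WT share was 35.3% with 50% overlap of both peaks, 35.4% above the median score of each list, 46.3% among WT peaks that reached the smallest cKO width, and 72.1% with equal numbers of peaks, which left 333 WT regions. The cKO share was 83.4% with 50% overlap, 98.9% above the median and 68.6% with equal numbers. The difference between far and nearer regions was 1.14 points in WT within score bins and -5.92 points in cKO with equal numbers. In all, 65 of 93 alternative values stayed within the interval or within 1.5 times the main count, and 28 moved. The order of the WT and cKO shares turned with equal numbers, which restates that fewer WT than cKO regions were left. The WT difference between far and nearer regions changed sign within score bins, with 0 inside both intervals. RefSeq neighbours and the setting without regions that overlap a RefSeq gene were chosen after seeing the data, and list shares moved mainly with equal numbers. They were then 83.3% of 6 regions assigned to transcription factors and 73.8% of 42 neighbours, 100% of 5 assigned to receptors and 77.8% of 18 neighbours, and 66.7% of 21 neighbours of signalling genes. Depth limits every count, since a missing peak may have fallen below the threshold of the caller.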
